A study of Mus musculus with 1617 samples.

Results

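The cells compared were macrophages of the mouse hippocampus, sorted and sequenced as single-cell libraries, in 2 groups that the labels call A2M and P7. A2M is the entry in the age field of the labels, and the sources used here do not say what it means. P7 is postnatal day 7. Members were chosen by their source label, which gave 83 A2M and 34 P7 cells, and were kept where 1000 genes or more stood at 1 TPM or more. That left 82 A2M and 28 P7 cells of the 1617 cells in the series. In units of 1000 genes, the A2M cell left out held 0.705 and the leanest one kept 1.215, and among P7 cells the values nearest to the minimum were 0.96 and 1.004. Both groups were sorted as positive for CD45, F4/80 and CD11b and negative for Ly6C, captured on Fluidigm C1 chips and read paired-end. Strain, genotype, treatment, sex, animal and preparation are not stated for either group. Each group therefore counts as 1 sample, and no test or p-value was made from its cells. Shares of cells carry exact Clopper-Pearson intervals, which cover counting error over cells only. Where no cell reached 1 TPM, the upper limit given is the share that 3 cells would make. TPM is a transcript level per length, scaled to a fixed total in every cell, so all levels are relative to the rest of the same cell. A log2 ratio below is that of the mean TPM of A2M over P7 cells with 1 TPM added to each mean.

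Microglia are the resident macrophages of the brain parenchyma. In the young brain they divide and clear debris, and later they settle into a state marked by P2ry12, Tmem119 and Sall1. Heat shock proteins are chaperones that hold and refold other proteins. Immediate early genes code mostly for transcription factors and their brakes, and they are transcribed from a poised state without new protein synthesis.

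A2M cells held more transcript of heat shock, immediate early and inflammatory genes than P7 cells, and less of cell cycle, ribosomal protein and mitochondrially encoded genes. Heat shock genes took a median of 2.25% of a cell's TPM in A2M and 0.327% in P7 cells. The median share of immediate early genes was 3.02% in A2M and 0.622% in P7 cells, and that of inflammatory cytokine and NF-kB genes was 2.08% in A2M and 0.31% in P7 cells. Of 28 genes of G2 and M phase, 25 were at least 2-fold lower in A2M cells. The microglial receptor P2ry12 differed little, with a mean of 5430 TPM in A2M and 6215 TPM in P7 cells.

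These differences stand on a wide background. Of 9495 genes whose mean TPM was at least 5 in A2M or in P7 cells, 29% were at least 2-fold higher in A2M cells and 34.9% at least 2-fold lower, with the same sign in the mean of log2(TPM + 1). Counts of listed genes below are to be read against these shares. The median log2 ratio over all 9495 genes was -0.26. A2M cells held up to 3491 genes, with a median of 2273.5, and P7 cells held up to 4473, with a median of 2582.5. Mitochondrial transcripts took a median of 1.29% of TPM in A2M and 4.66% in P7 cells, and pseudogenes 2.45% in A2M and 4.88% in P7 cells. Xist, the RNA of the inactive X chromosome, was listed at 0 in all 82 A2M cells and reached 1 TPM in 24 of 28 P7 cells. The Y-linked genes Ddx3y or Eif2s3y reached 1 TPM in 47 of 82 A2M and 0 of 28 P7 cells. The titles of each group form 1 unbroken run of numbers. Sex, title numbers and group therefore cannot be told apart. The part of mitochondrial share, genes per cell and transcript length in the differences below was not tested.

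The ratio also moved with transcript length and base composition. Over 8293 measured coding genes, the median log2 ratio was 0.49 in the shortest of 5 equal bins, 0.38, 0.02 and -0.58 in the next ones, and -1.19 in the longest. By GC content the medians ran from -0.34 in the lowest bin to 0.18 in the highest. Long transcripts were thus lower in A2M cells as a class. Relative to coding genes of like GC content and length, an alternative chosen after seeing the data, 12.2% of the named genes that were 2-fold different, 16 genes, fell short of 2-fold. These genes are given with that value below where they are described, as are list medians that it moved by over 1.5 times.

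**Figure D1:**
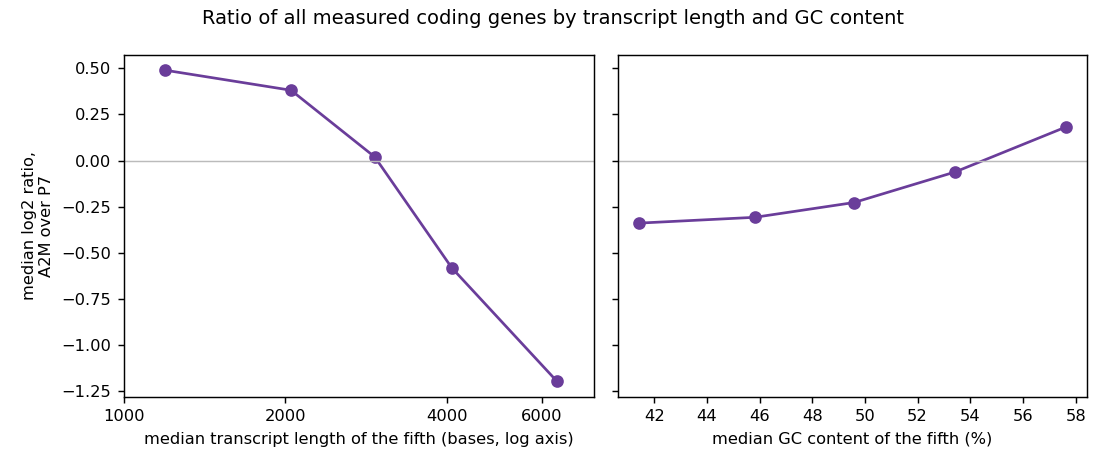
Median log2 ratio of A2M over P7 for 8293 measured coding genes, split into 5 equal bins by transcript length (left, bases) and by GC content (right, percent). The median runs from 0.49 in the shortest bin to -1.19 in the longest, and from -0.34 to 0.18 over GC content.

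The label was checked on marker genes. All 10 microglial markers were measured, and their summed level had a median of 33053 TPM in A2M and 28215 TPM in P7 cells. Tmem119 was at least 2-fold higher in A2M, and Sall1 and Fcrls at least 2-fold lower. Relative to genes of like GC content and length Tmem119 had 0.06 and Sall1 -0.71, against log2 ratios of 1.40 and -2.43. Cx3cr1 averaged 1857 TPM in A2M and 2891.4 TPM in P7 cells. Of the genes behind the sort gate, Ptprc, which codes for CD45, averaged 157.2 TPM in A2M and 233.1 TPM in P7 cells. Emr1, which codes for F4/80, averaged 97.7 TPM in A2M and 590.5 TPM in P7 cells, a log2 ratio of -2.58. Itgam, which codes for CD11b, averaged 88.8 TPM in A2M and 303.8 TPM in P7 cells, a log2 ratio of -1.76. The median of these 3 sort genes was -1.76, but -0.20 relative to genes of like GC content and length, where Itgam had -0.89.

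Markers of most other cell types were at or near 0. All 10 neutrophil, 5 mast cell and 6 erythroid markers were listed at 0 in every cell of both groups. The 11 neuronal markers summed to 0 TPM in every A2M cell and to at most 0.39 TPM in a P7 cell. T cell markers reached 1.17 TPM in an A2M and 16.3 TPM in a P7 cell. Natural killer cell markers reached 0.48 TPM in an A2M cell and 0 TPM in P7 cells, and mural cell markers 2.72 TPM in A2M and 0 TPM in P7 cells. Dendritic cell markers reached 262.4 TPM in an A2M and 9.21 TPM in a P7 cell, and those of ependyma and choroid plexus 251.8 TPM in A2M and 0 TPM in P7 cells. Astrocyte markers had medians of 0.695 TPM in A2M and 0 TPM in P7 cells and highest values of 663 TPM in A2M and 918 TPM in P7 cells, both from Slc1a3, a glutamate transporter gene whose log2 ratio was -0.07 and whose difference of mean log2 values was 1.44. Endothelial markers reached 471 TPM in A2M and 443 TPM in P7 cells, oligodendrocyte lineage markers 518 TPM in A2M and 494 TPM in P7 cells, and neural progenitor markers 109.2 TPM in A2M and 264.9 TPM in P7 cells. Mbp, a myelin gene, reached 1 TPM in 9 of 82 A2M and 1 of 28 P7 cells, and Nes, an intermediate filament gene of progenitors, in 0 of 82 A2M and 3 of 28 P7 cells. Monocyte markers reached 498 TPM in A2M and 410 TPM in P7 cells, with Ccr2, Ly6c2 and Plac8 below the measured level. Of the B cell markers, Ighm averaged 507 TPM in A2M and 357 TPM in P7 cells and Cd79b 57 TPM in A2M and 416 TPM in P7 cells, while Cd79a, Ms4a1 and Pax5 were below the measured level. The part of these other markers in the results was not tested.

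Heat shock genes were higher in A2M cells. Of 26 listed genes 23 were measured, 19 were at least 2-fold higher in A2M cells and 2, Hspa4 and Hsf2, at least 2-fold lower, against 29% and 34.9% of all genes. The list's median log2 ratio was 2.61, and 2.87 relative to genes of like GC content and length. In 77 of 82 A2M cells the list took a larger share of TPM than in any P7 cell.

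The inducible chaperone gene Hspa1a, at chr17:34969190-34972156 on the minus strand of GRCm38, ran from 0.7 to 10767 TPM in A2M cells, with a median of 1385 TPM, and was listed at 0 in all 28 P7 cells. It was the 1 gene of 9495 (0.0105%) whose lowest A2M cell lay above every P7 cell, though that cell held less than 1 TPM. No gene was the other way round. Hspa1b, the neighbour of Hspa1a, ran from 0 to 15341 TPM in A2M cells, with a median of 1453.9 TPM. It was also listed at 0 in all P7 cells. The pair code for nearly the same protein, so the split of reads between them is uncertain. Hspb1, a small heat shock protein gene, reached 1 TPM in 52 of 82 A2M cells (63.4%, exact 95% interval 52.05 to 73.8%) and was listed at 0 in all 28 P7 cells, for which the upper limit is a share of 10.7%. Its values in A2M cells had a median of 4.5 and a highest value of 37432 TPM, so a minority of cells, 4 of them, held most of the transcript.

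Dnajb1, which codes for a co-chaperone of Hsp70, had a median of 912 TPM and a highest value of 8683 TPM in A2M cells, against a median of 0 and a highest value of 684 TPM in P7 cells. The log2 ratio of the Dnajb1 means was 5.61, and 79 of 82 A2M and 6 of 28 P7 cells reached 1 TPM. The ranges of the groups overlap. Other chaperone genes were higher as well and also overlapped between groups. Hspa8 averaged 6871 TPM in A2M and 1591 TPM in P7 cells, Hsp90aa1 5226 TPM in A2M and 306.2 TPM in P7 cells, and Hsp90ab1 2016 TPM in A2M and 842 TPM in P7 cells. The mitochondrial chaperonin gene Hspe1 averaged 897 TPM in A2M and 73.8 TPM in P7 cells. Hsf1, the main heat shock transcription factor gene, averaged 40.9 TPM in A2M and 1.59 TPM in P7 cells and reached 1 TPM in 22 of 82 A2M and 4 of 28 P7 cells.

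Heat shock factors bind repeats of GAA, so the bases before the starts of these genes were searched for GAANNTTC and TTCNNGAA on both strands. In the RefSeq promoter table of GRCm38.p6, 12.8% of 32851 promoters held either motif within the 250 bases upstream of the start, as did at least 1 promoter of 14.5% of 27025 genes. Of 21 heat shock genes with an entry, 9 held it, and of the 15 of them that were at least 2-fold higher in A2M cells, 8 did. The upstream 250 bases of 3 inducible genes that were listed at 0 in P7 cells are shown 5′ to 3′ in the direction of the gene, with the motif in capitals. Hspa1a lies at chr17:34972157-34972406 and Hspa1b at chr17:34959239-34959488, both on the minus strand, with a motif that begins at base -104, and Hspb1 at chr5:135887669-135887918 on the plus strand, with motifs that begin at bases -117 and -97. The Hspa1a and Hspa1b windows are 98.8% identical and differ at 3 bases. No match was found in the entries of Dnajb1.
Hspa1a: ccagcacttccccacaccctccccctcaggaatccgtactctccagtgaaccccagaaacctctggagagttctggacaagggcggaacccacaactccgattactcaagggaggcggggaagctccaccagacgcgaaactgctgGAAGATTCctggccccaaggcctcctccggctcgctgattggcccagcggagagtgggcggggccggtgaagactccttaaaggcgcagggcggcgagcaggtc
Hspa1b: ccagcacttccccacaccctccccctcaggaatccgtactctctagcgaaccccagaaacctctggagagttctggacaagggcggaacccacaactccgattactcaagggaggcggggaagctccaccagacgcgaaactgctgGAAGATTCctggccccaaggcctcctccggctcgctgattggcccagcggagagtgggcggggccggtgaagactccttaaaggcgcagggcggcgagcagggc
Hspb1: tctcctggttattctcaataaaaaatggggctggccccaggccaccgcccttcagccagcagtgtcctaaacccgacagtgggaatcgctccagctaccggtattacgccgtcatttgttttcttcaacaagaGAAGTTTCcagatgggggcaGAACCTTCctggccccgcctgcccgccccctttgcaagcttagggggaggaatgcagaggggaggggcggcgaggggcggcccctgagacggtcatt
A match is a description of the letters and says nothing of binding in these cells.

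The unfolded protein response, which adjusts folding capacity in the endoplasmic reticulum, leaned the same way with wide overlap between the groups. Of 17 measured genes 8 were higher in A2M cells, 1, Canx, was lower and 8 were neither, against 29% higher and 34.9% lower of all genes. The list's share of TPM had a median of 0.832% in A2M and 0.483% in P7 cells. It was larger in 17 of 82 A2M cells than in any P7 cell. The median log2 ratio was 0.89 and the median difference of mean log2(TPM + 1) was 2.76. For the heat shock list the same 2 medians were 2.61 and 2.70. Xbp1, a transcription factor gene of this response, had a median of 289.1 and a highest value of 1487 TPM in A2M cells, against a median of 0 and a highest value of 173.4 TPM in P7 cells. In all, 69 of 82 A2M and 6 of 28 P7 cells reached 1 TPM of Xbp1. Ppp1r15a, which codes for a phosphatase subunit that restarts translation, averaged 1193.4 TPM in A2M and 205.7 TPM in P7 cells, and the chaperone gene Hspa5 1864 TPM in A2M and 498 TPM in P7 cells. Creld2 and Sdf2l1, both genes of the endoplasmic reticulum, had log2 ratios of 3.02 and 2.35. Of 26 proteasome genes, 5 were higher and 2 lower, a share below that of all genes in both directions.

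**Figure D2:**
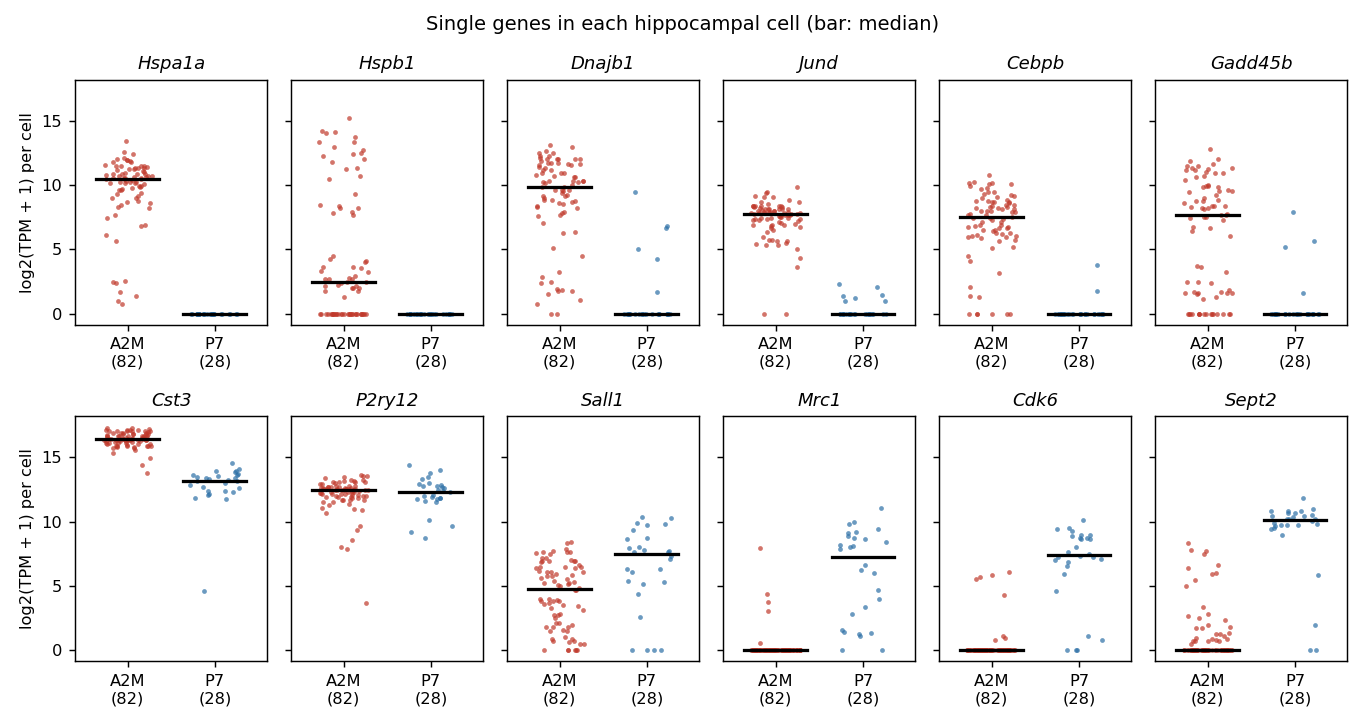
Level of 12 genes in each A2M (left, 82 cells) and P7 cell (right, 28 cells) as log2(TPM + 1), with a bar at the median. Hspa1a and Hspb1 are at 0 in every P7 cell, P2ry12 has a median of 5519 TPM in A2M and 5160 TPM in P7 cells, and Mrc1, Cdk6 and Sept2 have a median of 0 in A2M cells.

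Immediate early genes were higher in A2M cells. Of 19 measured genes, 16 were at least 2-fold higher and none at least 2-fold lower, and the median log2 ratio was 2.43, with 4.34 for the median difference of mean log2 values. Jund, an AP-1 subunit gene, had a median of 208.4 and a highest value of 931 TPM in A2M cells, and a median of 0 and a highest value of 3.95 TPM in P7 cells. All but 2 of the 82 A2M cells reached 1 TPM, and the 6 of 28 P7 cells that did stayed within a few TPM. Junb ran from 107.2 to 6759 TPM in A2M cells, with a median of 2452.7 TPM, and from 0 to 1444.5 TPM in P7 cells, with a median of 1.29 TPM. The Junb ranges overlap, and 14 of 28 P7 cells reached 1 TPM.

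Fos averaged 7159 TPM in A2M and 2007 TPM in P7 cells and Jun 1266 TPM in A2M and 235.7 TPM in P7 cells. Atf3, a stress-responsive factor gene, averaged 3672 TPM in A2M and 682 TPM in P7 cells. Zfp36, which codes for an RNA-binding protein that shortens the life of cytokine mRNAs, averaged 4206 TPM in A2M and 543.3 TPM in P7 cells. Egr1 was an exception among abundant members, with 1869 TPM in A2M and 2390.2 TPM in P7 cells and a log2 ratio of -0.35. Ier2 and the Krüppel-like factor gene Klf2 had log2 ratios of 4.02 and 5.76. The list took up to 7.39% of TPM in an A2M cell and up to 4.74% in a P7 cell, so the groups overlap.

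Genes that led in each direction were ranked by the smaller of 2 sizes, that of the log2 ratio and that of the difference of mean log2(TPM + 1), so some genes with larger log2 ratios are not among them. On the higher side these included other genes that respond quickly to signals. Cebpb, a transcription factor gene of myeloid cells, had a median of 177.1 and a highest value of 1792 TPM in A2M cells, against a median of 0 and a highest value of 12.7 TPM in P7 cells. Socs3, a feedback inhibitor of cytokine receptors, had a median of 215.5 and a highest value of 2558.2 TPM in A2M cells and was listed at 0 in all P7 cells. Gadd45b and Gadd45g, stress-inducible genes, had medians of 202.3 and 197.1 TPM in A2M cells and of 0 in P7 cells, with log2 ratios of 5.89 and 6.28. Rabac1, a membrane traffic gene, Orai1, a calcium channel gene, and Rn7sk, a noncoding RNA that restrains transcript elongation, had log2 ratios of 5.30, 5.05 and 5.58. Of the 12 leading genes, 11 had an annotated coding transcript, of 0.986 to 2.996 kb and with a median GC content of 58.9%, against 49.6% over all measured coding genes. Relative to genes of like GC content and length their log2 ratios were 3.71 to 10.52.

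Inflammatory cytokine and NF-kB genes followed the same direction. Of 28 listed genes 24 were measured, 20 were at least 2-fold higher in A2M cells and 1, Ccl7, at least 2-fold lower. The groups overlapped in the list's share of TPM. It was larger in 17 of 82 A2M cells than in any P7 cell, and reached 4.41% in a P7 cell. The median log2 ratio was 3.62, and 2.54 over the 20 genes above 0 in both groups, with 1.72 for the median difference of mean log2 values. Against the P7 cells of hippocampus, thalamus and visual cortex together the median log2 ratio was 1.74. Il1a, a cytokine gene, had a median of 396 and a highest value of 9300 TPM in A2M cells, against a median of 0 and a highest value of 410 TPM in P7 cells. The cytokine gene Tnf reached 1 TPM in 53 of 82 A2M cells (64.6%, exact 95% interval 53.3 to 74.9%) and in 2 of 28 P7 cells (7.14%, 0.877 to 23.5%). A2M cells varied widely, with a median of 2.23 and a highest value of 3112 TPM for Tnf, and 1 P7 cell held 99.6% of the P7 total.

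The chemokine genes Ccl3 and Ccl4 were present in both groups. Ccl4 had a median of 4729 and a highest value of 66110 TPM in A2M cells, against a median of 40.9 and a highest value of 37906 TPM in P7 cells. Ccl3 had a median of 2466.5 TPM in A2M and 242.3 TPM in P7 cells. Nfkbia, which codes for the inhibitor that NF-kB itself induces, averaged 4815 TPM in A2M and 800 TPM in P7 cells. Cd83, Nfkbiz and Icam1 had log2 ratios of 3.98, 3.80 and 1.94. The cytokine genes Il1b, Il6 and Cxcl2 were rare, at 1 TPM or more in 11, 5 and 18 of 82 A2M cells, and were listed at 0 in all P7 cells, with the same upper limit of 10.7%.

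Within the 82 A2M cells, the mean log2 level of the immediate early list and that of the inflammatory list had a Spearman rho of 0.54, and the heat shock list had 0.20 with the immediate early and 0.06 with the inflammatory list. The heat shock list had a rho of 0.38 with the number of genes per cell. These cells share a group and differ in genes per cell, and the values are descriptions only.

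**Figure D3:**
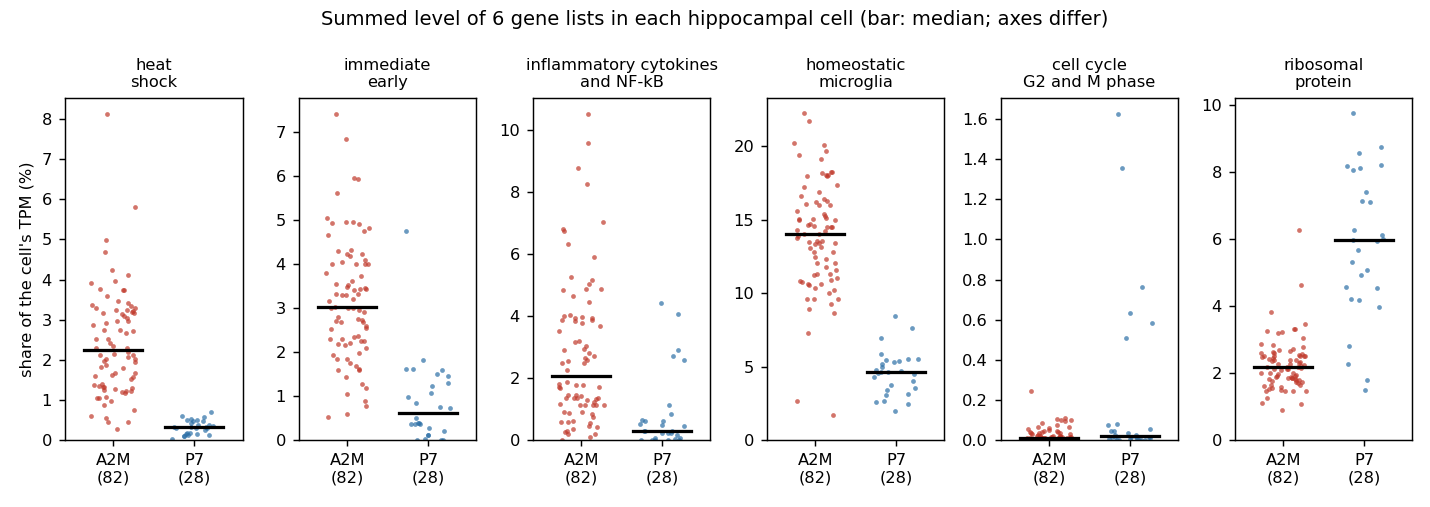
Share of each cell's TPM (percent) taken by 6 gene lists in A2M (left, 82 cells) and P7 cells (right, 28 cells), with a bar at the median. The heat shock list has a median of 2.25% in A2M and 0.327% in P7 cells, and 6 P7 cells lie above every A2M cell for genes of G2 and M phase.

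The highest values of MHC class II genes lay in few cells. At least 1 of the 10 listed genes reached 1 TPM in 77 of 82 A2M and 18 of 28 P7 cells. Their summed level had a median of 745.9 TPM in A2M and 39.8 TPM in P7 cells. MHC class II genes had a median log2 ratio of 3.93 over 9 measured genes, 6 of them at least 2-fold higher and none lower, but of 1.65 over the 6 genes above 0 in both groups. The list's median difference of mean log2 values was 0.63, and its median log2 ratio was 3.21 relative to genes of like GC content and length and 2.40 among the 64 A2M and 13 P7 cells within a shared window of 1764.3 to 2725.6 genes per cell. H2-Ab1 reached 1 TPM in 13 of 82 A2M and 0 of 28 P7 cells. A single A2M cell, the one with the fewest genes, held 32292 TPM of it, 95.1% of the total. The same cell held the highest H2-Aa, at 17562 TPM, Cd74, at 15912 TPM, Apoe, at 117455 TPM, Hspb1, at 37432 TPM, and Gadd45g, at 21475 TPM, and the lowest P2ry12, at 11.6 TPM. The cells next highest in H2-Ab1, at 618.9 and 544.9 TPM, are those whose titles come directly after its own. Without that cell the median log2 ratio of the class II list was 2.10, the mean of H2-Ab1 in A2M cells was 20.4 TPM and that of Cd74, the invariant chain gene, was 195.9 TPM, against 44.9 TPM in P7 cells.

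Of 12 MHC class I genes 3 were higher and 1 lower, against 29% and 34.9% of all genes, with a median log2 ratio of 0.07 that became -0.25 relative to genes of like GC content and length. B2m, the light chain gene, ran from 2072 to 15308 TPM in A2M cells and from 0 to 7213 TPM in P7 cells, with medians of 6314.9 TPM in A2M and 2715.9 TPM in P7 cells. The immunoproteasome genes Psmb8 and Psmb9 had log2 ratios of 2.52 and 6.61, and Psmb9 reached 1 TPM in 29 of 82 A2M and 0 of 28 P7 cells. The heavy chain gene H2-K1 averaged 404 TPM in A2M and 1407.3 TPM in P7 cells. Interferon response genes showed no common direction, with 5 of 17 higher and 6 lower, near the 29% and 34.9% of all genes. Their median log2 ratio was 0.53, while the median difference of mean log2(TPM + 1) was -0.27. Without the cell of each group highest in border-associated macrophage markers the median log2 ratio was -0.21. Mx1 and Stat2 were listed at 0 in every A2M cell and reached 1 TPM in 3 and 6 of 28 P7 cells. Of the P7 total, 52.2% for Mx1 and 80.3% for Stat2 lay in 1 cell.

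Complement and receptor genes split by gene. The complement component genes C1qa and C1qc averaged 6731 and 8754 TPM in A2M and 1039 and 1433.1 TPM in P7 cells, and C1qa had a highest value of 13324 TPM in A2M and 2671.9 TPM in P7 cells. C1qb, whose product joins them in one complex, averaged 13599 TPM in A2M and 7396 TPM in P7 cells, a log2 ratio of 0.88. Over the complement list, 3 of 11 genes were higher and 3 lower, against 29% and 34.9% of all genes. The list's summed share of TPM was nonetheless larger in 79 of 82 A2M cells than in any P7 cell. That share had a median of 3.05% in A2M and 1.10% in P7 cells. The list's median log2 ratio of -0.26 had the opposite sign to the median difference of mean log2 values, 0.75. Of 18 Fc and Toll-like receptor genes, 7 were higher and 1, Tlr1, was lower. The endotoxin receptor genes Cd14 and Ly96 had log2 ratios of 2.17 and 6.43, and Cd14 reached 1 TPM in 75 of 82 A2M and 11 of 28 P7 cells, while Tlr4, their partner, averaged 33 TPM in A2M and 35.2 TPM in P7 cells.

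Genes of the homeostatic microglial state went both ways. Of 25 measured genes, 8 were higher, 5 lower and 12 neither, against 29% higher and 34.9% lower of all genes. The median log2 ratio was 0.26, with 1.35 for the median difference of mean log2 values. The summed share of TPM of these genes was nonetheless larger in 79 of 82 A2M cells than in any P7 cell. It had a median of 14.03% in A2M and 4.65% in P7 cells. In A2M but not in P7 cells, most of that share was Cst3, which codes for the protease inhibitor cystatin C. Cst3 ran from 13931 to 162431 TPM in A2M cells, with a median of 86220 TPM, and from 23.6 to 23877 TPM in P7 cells, with a median of 9382 TPM. It took a median of 8.62% of a cell's TPM in A2M and 0.938% in P7 cells.

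Selplg, a ligand gene for selectins, had a median of 4322 and a highest value of 8268 TPM in A2M cells, against a median of 85.7 and a highest value of 1752 TPM in P7 cells, a log2 ratio of 3.87. Tmem119 had a median of 1282 TPM in A2M and 82.6 TPM in P7 cells. The groups overlap for both. On the lower side, Sall1, a transcription factor gene that keeps microglial identity, had a median of 26.2 and a highest value of 345 TPM in A2M cells, against a median of 177.96 and a highest value of 1329 TPM in P7 cells, although 69 of 82 A2M and 24 of 28 P7 cells reached 1 TPM. Csf1r, the receptor gene on which microglial survival depends, averaged 974 TPM in A2M and 2678.2 TPM in P7 cells, a log2 ratio of -1.46 that became -0.43 relative to genes of like GC content and length. Fcrls averaged 1782 TPM in A2M and 4264 TPM in P7 cells, and Mertk, a receptor gene for dying cells, 123.8 TPM in A2M and 297.2 TPM in P7 cells. Siglech, a microglial surface receptor gene, averaged 2754.2 TPM in A2M and 1889 TPM in P7 cells, short of 2-fold.

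Transcription factor and growth factor genes also went both ways, as did measured genes at large, 29% of them higher and 34.9% lower. The shares called in the lists of this paragraph lay near those. Of 20 macrophage transcription factor genes, 4 were higher, Spi1 and Irf8 among them, and 8 lower. Spi1, which codes for the myeloid master factor PU.1, averaged 334 TPM in A2M and 67.8 TPM in P7 cells, a log2 ratio of 2.28 that became 0.94 relative to genes of like GC content and length. Bhlhe41, Maf and Mef2c had log2 ratios of -3.98, -2.25 and -1.87. Tgfb1, the ligand gene that sustains adult microglia, had a median of 91.6 and a highest value of 475 TPM in A2M cells, reached 1 TPM in 63 of 82 of them and was listed at 0 in all 28 P7 cells. Other genes of the TGF-beta list were split, with 4 of 14 higher, Tgfb1 included, and 3 lower, among them Itgav and Ltbp1, whose products release and store the ligand. Relative to genes of like GC content and length Itgav had -0.52 and Ltbp1 -0.10, against log2 ratios of -1.57 and -1.82, and the list median of 0.22 became 1.09. Of 15 growth factor and receptor genes 4 were higher and 6 lower. Igf1 was listed at 0 in every A2M cell and reached 1 TPM in 4 of 28 P7 cells, and Nrp1, Tnfrsf1b and Csf2rb had log2 ratios of -2.90, -1.82 and -2.00. Relative to genes of like GC content and length Tnfrsf1b had -0.79 and Csf2rb -0.48, and Csf2rb turned to 1.85 in the shared window of genes per cell. Of 12 purinergic receptor and ion channel genes 4 were higher and 3 lower, and of 13 chemokine receptor and adhesion genes 4 were higher and 3 lower. The last list had a median log2 ratio of -0.21, against a median difference of mean log2 values of 0.37.

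Genes known from disease-associated microglia went both ways. Of 24 measured genes, 9 were higher and 5 lower, against 29% and 34.9% of all genes, and the median log2 ratio was 0.89. Fth1, a ferritin gene, averaged 12617 TPM in A2M and 1836 TPM in P7 cells. Spp1, which codes for osteopontin, was listed at 0 in all 82 A2M cells, an upper limit of 3.66%, and reached 1 TPM in 6 of 28 P7 cells (21.4%, exact 95% interval 8.3 to 40.95%). Of its P7 total, 99.7% lay in 1 cell. Lpl, a lipase gene, had a median of 0 in A2M and 11.5 TPM in P7 cells and a log2 ratio of -3.57. Clec7a, a pattern receptor gene, reached 1 TPM in 4 of 82 A2M and 0 of 28 P7 cells. Lyz2, the macrophage lysozyme gene, averaged 1719 TPM in A2M and 539 TPM in P7 cells, but 57.2% of its A2M total lay in 1 cell.

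Apoe, a lipid carrier gene, differed in sign between the 2 measures. It averaged 3965 TPM in A2M and 2424.8 TPM in P7 cells, a log2 ratio of 0.71. Its median was 19.04 TPM in A2M and 1028 TPM in P7 cells, and the difference of mean log2(TPM + 1) was -3.12. The highest A2M cell held 117455 TPM and the highest P7 cell 10716 TPM. Without the A2M cell of fewest genes the mean was 2563.7 TPM in A2M cells and the log2 ratio 0.08. A list of genes reported to rise in aging microglia, which shares members with the inflammatory and disease-associated lists, had 7 of 14 genes higher and 3 lower.

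Cell cycle genes were mostly lower in A2M cells. Of 23 measured S phase genes, 18 were at least 2-fold lower and none higher, with a median log2 ratio of -3.40 and a median difference of mean log2(TPM + 1) of -0.76. Of 28 measured genes of G2 and M phase, 25 were lower and 1, Cks2, was higher, with a median of -5.30, and of -4.16 over the 12 genes above 0 in both groups. Their median difference of mean log2 values was -1.26, and with 10 TPM added to the means the list medians were -1.59 for S phase and -2.47 for G2 and M phase. The proliferation marker gene Mki67 reached 1 TPM in 4 of 82 A2M cells (4.88%, exact 95% interval 1.34 to 12.02%) and in 10 of 28 P7 cells (35.7%, 18.6 to 55.9%). Its highest value was 41.2 TPM in A2M and 730.7 TPM in P7 cells. Top2a, the topoisomerase gene of dividing cells, reached at most 2.09 TPM in A2M and 1477.7 TPM in P7 cells. Ube2c and Cdk1, genes of mitotic exit and entry, reached 1 TPM in 2 and 1 of 82 A2M and in 8 and 9 of 28 P7 cells. Mcm6 and Uhrf1, genes of DNA replication and its methylation, were listed at 0 in every A2M cell and reached 1 TPM in 4 and 7 of 28 P7 cells.

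The difference rested on a part of the P7 cells. An A2M cell held at most 3 of the 28 genes of G2 and M phase at 1 TPM or more, with a median of 1, and a P7 cell up to 28, with a median of 3. In 6 P7 cells the list took a larger share of TPM than in any A2M cell, and in the others the ranges overlapped. In the shared window of genes per cell, the list medians were -3.26 for S phase and -4.15 for G2 and M phase. The log2 ratio of Cdk1 turned to 1.6045 there, with 100% of its A2M total in 1 cell.

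Border-associated macrophage markers had 7 of 9 measured genes lower in A2M cells and a median log2 ratio of -3.36. In the shared window of genes per cell the median of the 6 genes measured turned to 3.80, and the median difference of mean log2 values over all cells was -0.32. A single P7 cell held 5715 TPM of Pf4, 1686 TPM of Ms4a7, 1064 TPM of Lyve1, 994 TPM of Clec4n and 326 TPM of F13a1. The other 27 P7 cells were listed at 0 for Lyve1, Ms4a7 and Clec4n. An A2M cell stood apart in the same way, with 1748 TPM of Pf4, 371 TPM of Ms4a7, 80692 TPM of Lyz2 and 1128 TPM of Clec7a, and with Tmem119 and Sall1 listed at 0. Without these 2 cells 3 markers were measured and all 3 were lower. The ratio of Mrc1 is given without them below.

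Mrc1, the mannose receptor gene, was a separate case. In A2M cells its median was 0 and its highest value 251.9 TPM, and 4 of 82 cells reached 1 TPM (4.88%, exact 95% interval 1.34 to 12.02%). In P7 cells it had a median of 167.5 and a highest value of 2128 TPM, and 26 of 28 cells reached 1 TPM (92.9%, 76.5 to 99.1%). The log2 ratio of Mrc1 was -6.12, and -7.60 without the 2 cells above. Stab1, a scavenger receptor gene, averaged 136.3 TPM in A2M and 397 TPM in P7 cells, a log2 ratio of -1.53 that turned to 0.20 relative to genes of like GC content and length.

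Ribosomal protein genes were lower, with 49 of 79 at least 2-fold lower, 2 (Rpl22l1 and Rpl7l1) higher and a median log2 ratio of -1.24, and of -1.64 relative to genes of like GC content and length. Their summed share of TPM had a median of 2.18% in A2M and 5.97% in P7 cells. Rpl3 had a median of 188.02 TPM in A2M and 1901 TPM in P7 cells, and Rpl9 of 5.54 TPM in A2M and 2089 TPM in P7 cells. Single members share sequence with many processed pseudogenes, so their values are uncertain one by one. Of 13 mitochondrially encoded genes 11 were lower and mt-Nd4l, seen in 1 A2M cell, was higher, with a median log2 ratio of -2.12. That median was -1.10 in the shared window of genes per cell, -1.32 relative to genes of like GC content and length and -1.55 in cells with 2000 genes or more. mt-Nd4, a subunit gene of complex I, had a median of 480 TPM in A2M and 1738 TPM in P7 cells. Of 47 nuclear genes of oxidative phosphorylation 5 were higher and 3 lower, with a median log2 ratio of 0.12 that became -0.31 relative to genes of like GC content and length.

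Of 17 measured genes of cholesterol and lipid handling, 10 were lower and 1, Fdft1, was higher. Abcg1, a cholesterol exporter gene, had a median of 0 and a highest value of 64 TPM in A2M cells, against a median of 20.3 and a highest value of 3268.1 TPM in P7 cells, a log2 ratio of -6.32. The list median was -1.85 but became 0.16 when each gene's highest cell was left out in both groups, and -0.79 relative to genes of like GC content and length. Phagocytic receptor genes had 8 of 13 lower and 1, Havcr2, higher, and the median of -1.26 became -0.19 relative to genes of like GC content and length. Lrp1, a large endocytic receptor gene, averaged 25.1 TPM in A2M and 87.8 TPM in P7 cells, a log2 ratio of -1.76 that became -0.19 relative to genes of like GC content and length. Most lysosomal genes were within 2-fold, with 6 of 27 higher and 2 lower, Ctsh and Lamp1 among the higher and Ctsb and Man2b1 the lower ones. Glycolysis genes had 3 of 13 in each direction, with Hk2 at 89.2 TPM in A2M and 597.7 TPM in P7 cells. Of 5 measured fetal and imprinted genes 3 were lower and 1, Cdkn1c, was higher. Igf2bp3, a fetal RNA-binding protein gene, was listed at 0 in every A2M cell and reached 1 TPM in 6 of 28 P7 cells, and Cdkn1c was listed at 0 in every P7 cell.

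**Figure D4:**
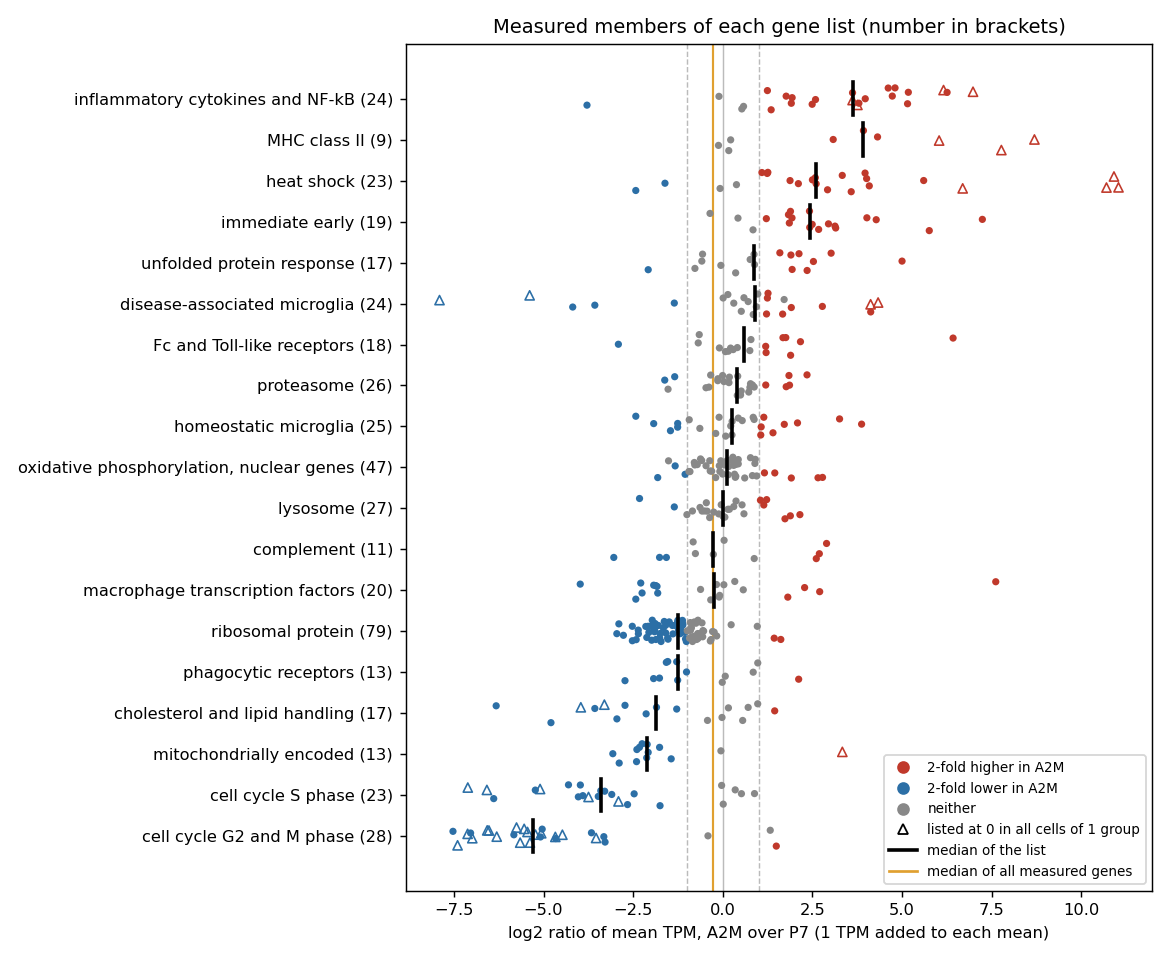
Log2 ratio of mean TPM, A2M over P7, for each measured member of 19 gene lists, with the list median as a black bar and the median of all 9495 measured genes, -0.26, as a yellow line. Open triangles mark genes listed at 0 in all cells of a group, whose position depends on the added 1 TPM. Inflammatory, heat shock and immediate early genes lie mostly right of 1 and cell cycle genes mostly left of -1.

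Of the 12 genes that led on the lower side by that ranking, Mrc1 alone is on a list. Cdk6, a kinase gene of the G1 to S transition, had a median of 0 and a highest value of 65.1 TPM in A2M cells, against a median of 170 and a highest value of 1114 TPM in P7 cells. Dpysl2, a cytoskeletal adaptor gene, had a median of 0.51 TPM in A2M and 933 TPM in P7 cells, and Sept2, a septin gene, of 0 in A2M and 1100 TPM in P7 cells. All 3 were at or near 0 in most A2M cells and high in most P7 cells, and the groups overlap because some P7 cells were listed at 0. Slc39a1, a zinc transporter gene, Med1, a Mediator subunit gene, and Cbx3, a heterochromatin protein gene, had log2 ratios of -5.15, -5.52 and -4.72. Arglu1, Golt1b and Itpripl1 had -4.77, -5.36 and -5.52. The entry named Yam1 ran from 13 to 306.4 TPM in A2M and from 296.9 to 7792 TPM in P7 cells, a log2 ratio of -5.05, and RP24-81A5.2 had a log2 ratio of -4.47. Neither has a coding transcript in the annotation used. The other 10 had coding transcripts of 1.889 to 11.525 kb with a median GC content of 44.7%, and their log2 ratios relative to genes of like GC content and length were -6.05 to -4.46.

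Other groups of the series place these values. The paired-end P7 cells of thalamus and visual cortex, 42 and 28 cells, and paired-end P14 cells of visual cortex are set beside the 2 groups here. Hspa1a averaged 1670 TPM in A2M cells, was listed at 0 in P7 cells of hippocampus and visual cortex, and averaged 0.23 TPM in P7 thalamus and 1.16 TPM in P14 visual cortex. In hippocampal cells read single-end, at P14 and in 63 adult cells, the Hspa1a means were 76.6 and 48.8 TPM. Cebpb averaged 301.8 TPM in A2M cells and at most 7.29 TPM in the 6 other groups, and Gadd45b 738.7 TPM in A2M and at most 11.5 TPM in the others. Tgfb1 averaged 114.8 TPM in A2M and at most 4.26 TPM in the others. Cst3 averaged 91925 TPM in A2M and 9596 to 18321 TPM in the others, and C1qa 6731 TPM in A2M and 316 to 1039 TPM in the others.

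On the lower side the A2M cells also stood outside the range of the 6 other groups. Sept2 averaged 16.7 TPM in A2M and 644 to 1134 TPM in the others, Dpysl2 11.3 TPM in A2M and 388 to 959 TPM in the others, and Cdk6 2.92 TPM in A2M and 48.5 to 282.4 TPM in the others. Mki67 differed from these, since it averaged 1.15 TPM in A2M cells and, in the hippocampus, 72.1 TPM at P7, 0.337 TPM at P14 and 1.41 TPM in adults. The median ribosomal protein share of TPM was 2.18% in A2M cells and, in the hippocampus, 5.97% at P7, 2.96% at P14 and 1.66% in adults. The median heat shock share was 2.25% in A2M cells and, in the hippocampus, 0.327% at P7, 0.664% at P14 and 0.781% in adults. The single-read groups differ in read layout, so these levels are set side by side only.

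**Figure D5:**
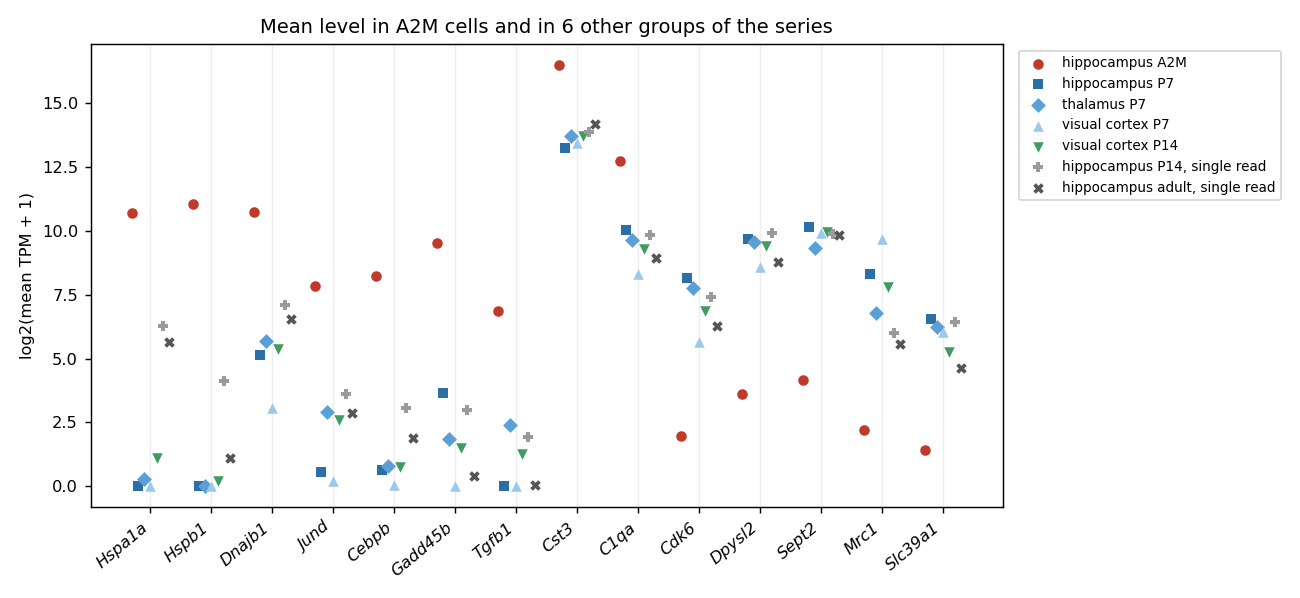
Mean level of 14 genes as log2(mean TPM + 1) in A2M cells (red circles) and in 6 other groups, single-read groups in grey. For Hspa1a, Cebpb, Gadd45b, Tgfb1, Cst3 and C1qa the A2M mean lies above all 6 others, and for Cdk6, Dpysl2 and Sept2 below all 6.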

How the data were processed

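The authors deposited gene-level TPM values for single cells, in which expression is scaled by transcript length and to a fixed total per cell. Per the labels' protocols and the series' design text, cells were sorted and captured on the Fluidigm C1, with libraries by Nextera XT. Per the submitters' processing notes, RSEM 1.2.19, Seurat and GRCm38 were used; aligner and annotation: not given in the sources used here. TPM keeps no read depth, so depth is unknown, cells could not be thinned and no floor on reads is given.

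Cells with 1000 or more genes at 1 TPM or more were kept, and no doublet caller was run. A gene counted as measured where its mean TPM was at least 5 in A2M or P7 cells, and called at a log2 ratio of 1 or more in size (1 TPM added to each mean) with the same sign in the difference of mean log2(TPM + 1). No animal is named, so each group is 1 sample and no test was made. The named genes were those with a mean of 50 TPM and 25% of cells at 1 TPM in the higher group, 12 in each direction by the smaller of the 2 measures, up to 4 for each of 47 lists, and 19 named always; other list members were named after their values were seen. A few genes are not reported here. Members and lists were chosen with earlier results of these data known. Of 1617 cell columns, 1069 were not used, and levels in other groups were limited to 7 groups where the plan had named all. No 2 columns used were identical. Of 43280 gene names, 39374 (91.0%) matched GENCODE M21. Matplotlib 3.10.9, scipy 1.17.1, pandas 2.3.3 and numpy 2.4.6 were run under Python 3.11.15, and the calling step was tested on simulated data.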

Additional observations from a re-analysis of the deposited data

How the results depend on the processing

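No paired analysis was possible because each group is 1 sample and no test was made. The count of genes 2-fold higher in A2M cells, 29% of those measured, became 1314 by the difference of mean log2 values, 1787 with 10 TPM added and 1486 at a minimum mean of 20 TPM. The count of genes 2-fold lower in A2M, 34.9%, became 1298 by the difference of mean log2 values and 1776 without each gene's highest cell in each group. In the other alternatives both counts stayed within 1.5 times. The median over all genes was 0.77 without the highest cells, against -0.26, and 0.06 after median-ratio rescaling by 0.83. Without the highest cells 45.2% of genes were higher and 23.6% lower, and in the shared window of genes per cell, with 64 A2M and 13 P7 cells, 39.8% were higher and 31.9% lower. Over all alternatives 456 values of list medians stayed within 1.5 times the reported value and 19% moved further. Of medians at 2-fold or more, 3 values turned sign: cholesterol and lipid handling to 0.16 without the highest cells, and border-associated macrophages to 3.80 and monocytes to 3.13 in the shared window. Of medians under 2-fold 43 values turned sign, over 14 of 19 lists. Of single-gene ratios 1746 values stayed within 1.5 times and 21% moved further. Of those under 2-fold 18 values turned sign, and of those at 2-fold or more 11: in the shared window Cdk1 to 1.6045, Csf2rb to 1.85, Pf4 to 4.84, Vcan to 0.0538, Pecam1 to 2.63 and F13a1 to 0.21. Vcan turned to 0.11 without the highest cells. Against P7 cells of 3 regions Psmd1 turned to -0.40, Psmc5 to -0.66 and Clec7a to -0.15. Relative to genes of like GC content and length Stab1 turned to 0.20. That alternative, and leaving out the A2M cell of fewest genes or the cell of each group highest in border-associated macrophage markers, were chosen after seeing the data. The causes were not tested.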
